A study of Mus musculus with 19 samples.

Results

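A set of 9 genes of leukocyte adhesion was followed in bone marrow monocytes given G-CSF: the integrin alpha chains Itgam, Itgal, Itgax and Itga4, the integrin beta chains Itgb1, Itgb2 and Itgb7, the selectin ligand Selplg and the hyaluronan receptor Cd44. They were picked by gene symbol as a functional family, and all 9 were found, once each, among the 33559 rows of the deposited bulk expression table. The bulk part of the series held 5 mouse libraries, all from wild-type bone marrow monocytes, with 3 labelled as given G-CSF (G-CSF replicates 1 to 3) and 2 with no treatment (no G-CSF replicates 1 and 2). The labels gave no dose, duration, strain, sex or age, and did not say whether G-CSF was given to animals or to cultured cells or how the monocytes were isolated. Whether the replicates were separate animals is not stated either, so the p-values reflect spread among libraries that may be technical. The remaining 14 samples of the series are single-cell libraries of skin and were not analysed here.

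Integrins are surface receptors made of an alpha and a beta chain, and a chain reaches the cell surface only with its partner. In blood leukocytes the beta-2 chain (CD18, Itgb2) pairs with the alpha chains of LFA-1 (CD11a, Itgal), Mac-1 (CD11b, Itgam) and p150,95 (CD11c, Itgax), which bind intercellular adhesion molecules, complement fragments and fibrinogen. The alpha-4 chain (Itga4) pairs with the beta-1 chain (Itgb1) to bind VCAM-1 and fibronectin, or with the beta-7 chain (Itgb7) to bind the mucosal addressin MAdCAM-1. PSGL-1, encoded by Selplg, is the main ligand of P-selectin and starts the rolling of leukocytes on endothelium, and CD44 binds hyaluronan and, when suitably glycosylated, E-selectin. The growth factor G-CSF is known to mobilise blood progenitors out of the marrow, where alpha-4 integrin and CD44 help to retain them.

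Itgam and Itgax lie side by side on chromosome 7 in the same orientation, with 11055 bases between them on GRCm38 (Itgam at 128062640 to 128118491, Itgax at 128129547 to 128150657), and Itgal lies on the same chromosome at 127296260 to 127335138. The other members lie apart: Itga4 at 79255426 to 79333123 and Cd44 at 102811141 to 102901665 on chromosome 2, Selplg at 113818536 to 113832644 on chromosome 5, Itgb1 at 128685654 to 128733200 on chromosome 8, Itgb2 at 77530252 to 77565708 on chromosome 10, and Itgb7 at 102215995 to 102231944 on chromosome 15. Promoter sequences of 6 of the 9 members were held in the RefSeq table for GRCm38.p6 (Itga4, Cd44, Itgam, Itgax, Itgb1 and Itgb7). The 250 bases before the start site are shown for 2 pairs whose values parted in the libraries, the neighbours Itgam and Itgax, and the alternative alpha-4 partners Itgb1 and Itgb7. Each is written 5′ to 3′ on the gene's strand, with capitals for matches to a motif.
Itgam (chr7:128062390-128062639, plus strand): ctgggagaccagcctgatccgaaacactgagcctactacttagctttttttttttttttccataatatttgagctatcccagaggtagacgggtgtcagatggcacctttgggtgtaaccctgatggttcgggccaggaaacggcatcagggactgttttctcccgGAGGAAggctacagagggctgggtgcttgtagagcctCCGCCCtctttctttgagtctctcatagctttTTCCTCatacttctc
Itgax (chr7:128129300-128129549, plus strand): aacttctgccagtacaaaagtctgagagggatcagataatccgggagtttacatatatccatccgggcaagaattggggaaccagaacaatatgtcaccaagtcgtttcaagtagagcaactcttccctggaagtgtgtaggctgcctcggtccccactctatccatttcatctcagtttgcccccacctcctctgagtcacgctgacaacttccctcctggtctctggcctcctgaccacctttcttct
Itgb1 (chr8:128685404-128685653, plus strand): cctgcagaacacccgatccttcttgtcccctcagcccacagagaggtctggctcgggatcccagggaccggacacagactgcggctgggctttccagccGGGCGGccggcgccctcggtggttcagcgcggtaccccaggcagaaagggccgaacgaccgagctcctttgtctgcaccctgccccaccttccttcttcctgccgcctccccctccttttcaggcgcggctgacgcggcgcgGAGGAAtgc
Itgb7 (chr15:102231936-102232185, minus strand): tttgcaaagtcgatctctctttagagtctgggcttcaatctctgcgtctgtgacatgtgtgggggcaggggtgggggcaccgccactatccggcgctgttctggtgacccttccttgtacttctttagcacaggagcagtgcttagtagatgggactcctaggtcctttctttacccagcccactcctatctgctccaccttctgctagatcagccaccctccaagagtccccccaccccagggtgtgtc

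Capitals mark GAGGAA, the purine-rich box typical of PU.1 sites in myeloid promoters, or GGGCGG, the GC box, on either strand. The Itgam window held 2 purine boxes, at 84 to 79 bases before the start on the gene's strand and at 15 to 10 bases before it on the opposite strand, and 1 GC box at 47 to 42 bases on the opposite strand. The Itgax and Itgb7 windows held neither. Itgb1 had a purine box at 9 to 4 bases and a GC box at 151 to 146 bases before its start, both on the gene's strand. Of the 6 member windows, 3 held GAGGAA (Itgam, Itgb1 and Cd44, with 2 in Cd44) and 3 held GGGCGG (Itgam, Itgb1 and Itga4). GAGGAA was found in 23.3% of all 32851 promoter windows of this length and GGGCGG in 32.7%, so a match is common. TTCNNNGAA, the palindrome bound by STAT factors, was in 7.02% of the windows and in 0 of the 6 from members. No motif overlapped another in the windows shown.

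Values were deposited as FPKM, fragments counted per kilobase of a gene and scaled for the size of the library, so levels can be set beside each other across genes. The reads behind each value, recovered from the FPKM steps, came to between 74 (Itgb7 in no G-CSF replicate 2) and 8473 (Itgb2 in G-CSF replicate 2). The exact Poisson 95% interval was accordingly ± 23.5% of the level at the shallow end and ± 2.14% at the deep end, for counting error only. The library labelled no G-CSF replicate 2 stood apart from the rest. It was the shallowest library, with 2923773 recovered reads against 5911052 to 6988609 in the G-CSF libraries and 5981805 in no G-CSF replicate 1. Its FPKM summed to 3299131 over all rows, against 586197 to 1577090 in the G-CSF libraries and 392646 in no G-CSF replicate 1. The median log2(FPKM + 1) of the genes tested was 2.29 there, against 2.40 to 2.42 in the other libraries. The summed FPKM of 10 neutrophil markers was 5745, 6526 and 4247 in G-CSF replicates 1, 2 and 3, and 11191 and 2102 in no G-CSF replicates 1 and 2. The 10 monocyte markers summed to 4930, 3116 and 5671 FPKM in the G-CSF libraries, against 3750 and 1534 FPKM in the untreated ones, and every one was above 1 FPKM in every library. The monocyte markers were thus present as the label says, but so were all 10 neutrophil markers, each above 1 FPKM in every library. The monocyte sum was mostly Lyz2. Gene by gene, 7 of the 10 monocyte markers were higher with G-CSF without overlap, against 20.0% of all genes tested. Of those 7, 6 had an unadjusted limma p under 0.05, and 7.9% of all genes were higher at that p. The median log2 fold change of the list was 1.06. Of 7 neutrophil progenitor markers, 5 (Mpo, Elane, Prtn3, Ctsg and Ms4a3) were higher without overlap, beside the same 20.0% of all genes. The median over that list was 1.85. The other 2 went the other way, Gfi1 lower without overlap (log2 fold change -1.30) and Cebpe lower with overlap (-0.70). No gene of either list passed the adjusted test, and the part of these marker genes in the members' values was not tested. Fewer cells of a type and less RNA per cell cannot be told apart in such bulk samples. Members are therefore given below with all 5 libraries and against each untreated library alone.

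Of the members, 8 had a higher mean and 1, Itgax, a lower mean with G-CSF, but 0 of 9 passed limma's test across 16791 genes at an adjusted p under 0.05. Across all genes tested, 0.00596% were called higher (1 gene) and 0.0% lower. At an unadjusted p under 0.05 the members numbered 3 of 9 (Selplg and Itgb7 higher, Itgax lower), against 12.7% of all genes (7.9% higher and 4.76% lower). With voom on the recovered reads 0 members passed and 4 had an unadjusted p under 0.05. In 6 of 9 members the 3 values with G-CSF and the 2 untreated values did not overlap (Selplg, Itgb7, Itgb1, Itga4 and Itgam higher, Itgax lower), against 32.0% of all genes tested (20.0% higher, 11.9% lower). The median log2 fold change of the members, on the log2(FPKM + 1) scale, was 0.79, beside 0.08 over all genes. Over genes reaching 5 FPKM in 2 or more libraries, as every member did, it was 0.22. Against no G-CSF replicate 1 alone the members' median was 0.22, beside 0.05 over all genes. Against replicate 2 alone it was 0.82, beside 0.19 over all genes. With replicate 2 as the lone untreated library, assumed to vary as the treated ones do, 3 members were called higher (Cd44, Selplg and Itgam) and 1 lower (Itgax), with limma adjusted p between 0.0136 and 0.0285. In that fit 2834 of all genes were called higher and 1977 lower, so a call there is no mark of the members.

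**Figure D1:**
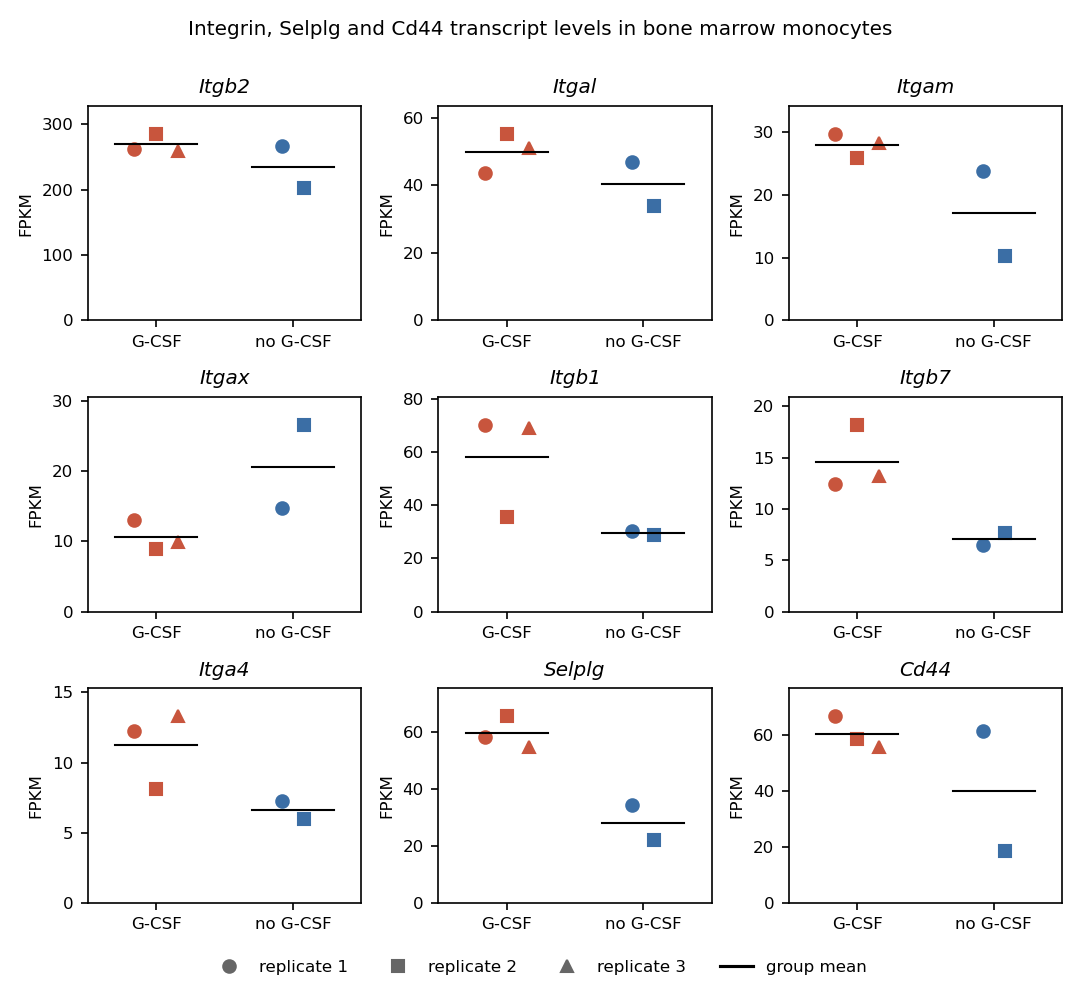
FPKM of each member in the 5 libraries, G-CSF left and no G-CSF right, with 1 point per library (shape gives the replicate number) and a line at the group mean. Itgb7 and Selplg sit clear of the untreated libraries, Itgax sits below them, and Itgam and Cd44 are spread widely between no G-CSF replicates 1 and 2.

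Selplg had the largest log2 fold change among the members. It measured 58.5, 65.7 and 54.9 FPKM in the G-CSF libraries, against 34.4 and 22.1 FPKM in the untreated ones. All 3 treated libraries lay above both untreated libraries, with means of 59.7 ± 5.50 FPKM (SD, n = 3) and 28.3 ± 8.64 FPKM (SD, n = 2). On the log2 scale the fold change was 1.08 ± 0.31 (SE; 95% interval 0.33 to 1.84), which did not pass (adjusted p in limma = 0.304). Against no G-CSF replicate 1 alone it was 0.78, and against replicate 2 alone 1.39, so the direction did not rest on either.

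Cd44 showed the opposite kind of pattern, in which the difference rested on 1 untreated library. It measured 66.7, 58.5 and 55.6 FPKM in the G-CSF libraries, against 61.5 and 18.4 FPKM in the untreated ones. The untreated replicate 1 lay inside the range of the treated libraries, and exceeded the untreated replicate 2 by 3.33-fold, the widest gap between the untreated libraries of any member. In log2 terms the difference was 0.81 ± 0.52 (SE; 95% interval -0.48 to 2.10; adjusted p in limma = 0.524). It was 1.65 against no G-CSF replicate 2 alone and turned to -0.03 against replicate 1 alone. Within a library, Selplg amounted to 0.877, 1.12 and 0.988 times the FPKM of Cd44 with G-CSF, and to 0.559 and 1.20 times without, so the groups overlapped in this ratio.

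Itgb2, the shared partner of 3 alpha chains, was the most abundant member in both groups. It measured 262.7, 285 and 259 FPKM in the G-CSF libraries, against 267 and 202 FPKM in the untreated ones. The groups overlapped, with no G-CSF replicate 1 inside the treated range. The log2 fold change of 0.21 ± 0.35 (SE; 95% interval -0.66 to 1.08; adjusted p in limma = 0.808) was the smallest in size among the members. Itgal, the alpha chain of LFA-1, behaved much like it: 43.8, 55.3 and 51.0 FPKM in the G-CSF libraries, against 47.0 and 34.0 FPKM in the untreated ones. Its log2 fold change was 0.31 ± 0.29 (SE; 95% interval -0.41 to 1.03; adjusted p in limma = 0.657), and the groups overlapped again. Itgb2 amounted to 3.03, 3.17 and 2.91 times the summed FPKM of Itgal, Itgam and Itgax with G-CSF, and to 3.13 and 2.85 times without. With Itgam counted on its unshared exon bases alone, for the reason given with its values, the ratio would be 1.73, 1.94 and 1.71 with G-CSF, and 1.94 and 2.16 without.

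Itgam measured 29.8, 25.9 and 28.3 FPKM in the G-CSF libraries, against 23.8 and 10.3 FPKM in the untreated ones. The treated libraries lay close together, and no G-CSF replicate 1 lay just under them. Its log2 fold change of 0.79 ± 0.38 (SE; 95% interval -0.16 to 1.73; adjusted p in limma = 0.442) was 0.22 against no G-CSF replicate 1 alone and 1.35 against replicate 2 alone. Itgam was thus lowest in no G-CSF replicate 2, as were Cd44, Itgal, Itga4, Itgb1, Itgb2 and Selplg, and only Itgb7 and Itgax were not. It was the library with the lowest sums of both neutrophil and monocyte markers. For the monocyte markers that place rested on Lyz2. Without Lyz2 the lowest monocyte sum was that of no G-CSF replicate 1, at 241 FPKM, while replicate 2 had 301 FPKM. The treated libraries then ranged from 408 to 524 FPKM. The highest neutrophil sum was in no G-CSF replicate 1, where Itgam lay below every treated library. CD11b is carried by neutrophils and monocytes alike, and the part of either cell type in these differences was not tested. The level of Itgam relative to other genes is uncertain, because 3450 of its 5024 exon bases (68.7%) are shared in GENCODE M21 with Gm49368, an overlapping gene on the same strand. Gm49368 itself was given between 1 and 17 reads per library. How reads in shared exons were counted is not given in the sources used here.

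Itgax, the CD11c chain used to mark dendritic cells and some monocytes and macrophages, was the single member with a lower mean. It measured 13.1, 8.86 and 9.96 FPKM in the G-CSF libraries, against 14.7 and 26.6 FPKM in the untreated ones. Every treated library lay below both untreated ones, though G-CSF replicate 1 was close to no G-CSF replicate 1. The log2 fold change was -0.86 ± 0.34 (SE; 95% interval -1.70 to -0.015; adjusted p in limma = 0.387), and it was -0.45 against no G-CSF replicate 1 alone and -1.26 against replicate 2 alone. Dendritic cell markers were low throughout: 7 genes summed to 4.695, 4.599 and 5.54 FPKM in the G-CSF libraries, against 8.09 and 21.8 FPKM in the untreated ones. In no G-CSF replicate 2 that sum was mostly Batf3 (18.4 FPKM), and without Batf3 it was 2.95, 2.86 and 3.36 FPKM in the G-CSF libraries, against 6.21 and 3.33 FPKM in the untreated ones, highest in no G-CSF replicate 1. Bone marrow macrophage markers summed to 788, 602 and 1025 FPKM in the G-CSF libraries, against 409.9 and 1340 FPKM in the untreated ones. The part of these cell types in the Itgax values was not tested.

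Shares within a library do not move with the scaling between libraries. Of the summed FPKM of Itgal, Itgam and Itgax, Itgax took 15.1%, 9.84% and 11.2% with G-CSF, and 17.2% and 37.5% without. Itgam took 34.3%, 28.8% and 31.7% with G-CSF, and 27.8% and 14.6% without. As deposited, Itgax exceeded Itgam in no G-CSF replicate 2 alone, where Itgam was 0.388 times Itgax, against 2.27, 2.92 and 2.84 times in the G-CSF libraries and 1.62 times in no G-CSF replicate 1. Itgal held the largest share in every library, 50.6%, 61.4% and 57.1% with G-CSF, and 55.0% and 48.0% without. For Itgax and for Itgam the groups did not overlap, which gave an exact two-sided permutation p of 0.2, the smallest that 10 arrangements of 3 and 2 libraries allow. The differences of the mean shares were -15.3 percentage points for Itgax and 10.4 for Itgam, and with 4 shares tested the adjusted p was 0.4 for each. The Itgal shares overlapped (difference 4.90 points, exact permutation p = 0.4). If Itgam had been counted on its 1574 unshared exon bases alone, its share would be 62.5%, 56.3% and 59.7% with G-CSF, and 55.2% and 35.2% without. Itgax would then take 8.63%, 6.04% and 6.58% with G-CSF, and 10.7% and 28.4% without, below Itgam in every library. The order of Itgam against both Itgal and Itgax therefore depends on the counting, whereas the Itgax share was lower in every G-CSF library than in either untreated one both ways.

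**Figure D2:**
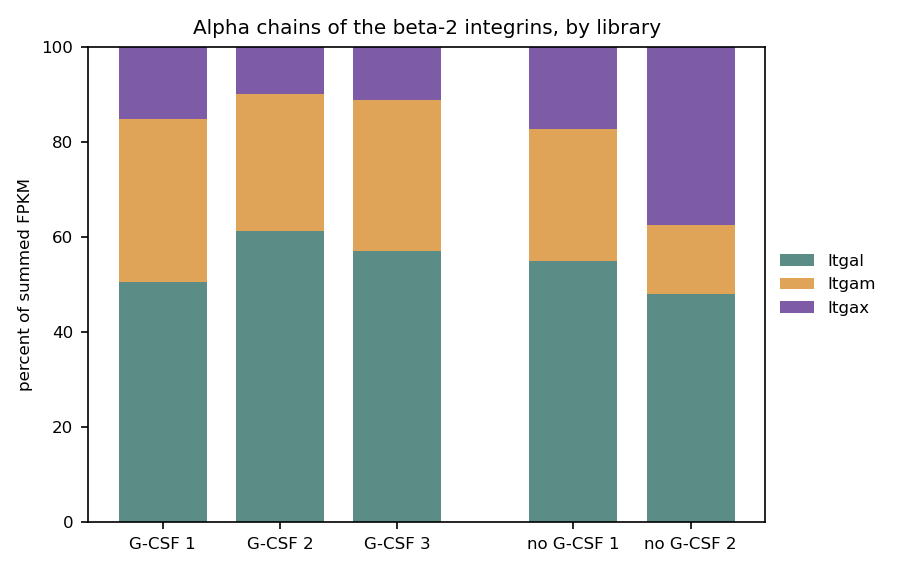
Share of Itgal, Itgam and Itgax in their summed FPKM, in percent, with 1 bar per library, G-CSF left and no G-CSF right. Itgax takes 37.5% in no G-CSF replicate 2 and between 9.84% and 17.2% in the other libraries.

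Among the chains of the alpha-4 integrins, Itgb7 had the largest log2 fold change. It measured 12.4, 18.2 and 13.2 FPKM in the G-CSF libraries, against 6.48 and 7.71 FPKM in the untreated ones. Treated and untreated libraries did not overlap, and the untreated libraries lay close together. The log2 fold change was 0.93 ± 0.27 (SE; 95% interval 0.27 to 1.60), which did not pass (adjusted p in limma = 0.314). It was 1.04 against no G-CSF replicate 1 alone and 0.82 against replicate 2 alone. Itgb7 is also carried by lymphocytes and mast cells. The 8 T cell markers summed to 11.5, 7.14 and 11.02 FPKM in the G-CSF libraries, against 13.8 and 12.0 FPKM in the untreated ones, and the 8 B cell markers to 62.0, 78.6 and 82.3 FPKM in the G-CSF libraries, against 219.6 and 126.5 FPKM in the untreated ones. The T cell sum was mostly Il7r and Cd4, whose values overlapped between the groups. The 6 NK cell markers summed to 10.5, 11.8 and 7.98 FPKM in the G-CSF libraries, against 5.23 and 2.57 FPKM in the untreated ones, highest, like Itgb7, in G-CSF replicate 2. That sum was mostly Nkg7, the only 1 of the 6 that was tested. It differed by 1.33 on the log2 scale with no overlap between the groups (adjusted p in limma = 0.339). Without Nkg7 the sum was 2.83, 0.114 and 0.0839 FPKM in the G-CSF libraries, against 0.171 and 0.996 FPKM in the untreated ones. The likeness to Itgb7 was thus that of Nkg7 alone. The part of these cells in the Itgb7 values was not tested.

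Itgb1 measured 70.1, 35.5 and 68.9 FPKM in the G-CSF libraries, against 30.4 and 28.6 FPKM in the untreated ones. G-CSF replicates 1 and 3 stood far above the untreated libraries, and G-CSF replicate 2 only a little above them. The log2 fold change was 0.89 ± 0.39 (SE; 95% interval -0.06 to 1.84; adjusted p in limma = 0.410), and 1.21 without G-CSF replicate 2. Itga4 was likewise highest in G-CSF replicates 1 and 3, at 12.3, 8.10 and 13.3 FPKM in the G-CSF libraries, against 7.26 and 5.98 FPKM in the untreated ones. Its log2 fold change was 0.66 ± 0.29 (SE; 95% interval -0.06 to 1.38; adjusted p in limma = 0.415). A stretch of 1124 exon bases of Itga4 (8.04%) lies opposite exons of Cerkl, and strandedness was not given, so a small part of its reads cannot be assigned with certainty.

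The beta partners of the alpha-4 chain thus ranked the treated libraries in opposite order. Itgb7 was highest and Itgb1 lowest in G-CSF replicate 2, where Itgb7 amounted to 0.512 times Itgb1, against 0.177 and 0.191 times in G-CSF replicates 1 and 3, and 0.214 and 0.269 times in the untreated libraries. G-CSF replicate 2 also had the lowest sum of monocyte markers and the highest sum of neutrophil markers among the treated libraries, and the part of these markers in the Itgb1 and Itgb7 values was not tested. The sum of Itgb1 and Itgb7 was 6.73, 6.63 and 6.17 times Itga4 with G-CSF, and 5.07 and 6.07 times without. Of the summed FPKM of the 3 beta chains, Itgb1 made up 20.3%, 10.5% and 20.2% with G-CSF, and 9.98% and 12.0% without, so the groups overlapped (exact two-sided permutation p = 0.4, adjusted p = 0.4).

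**Figure D3:**
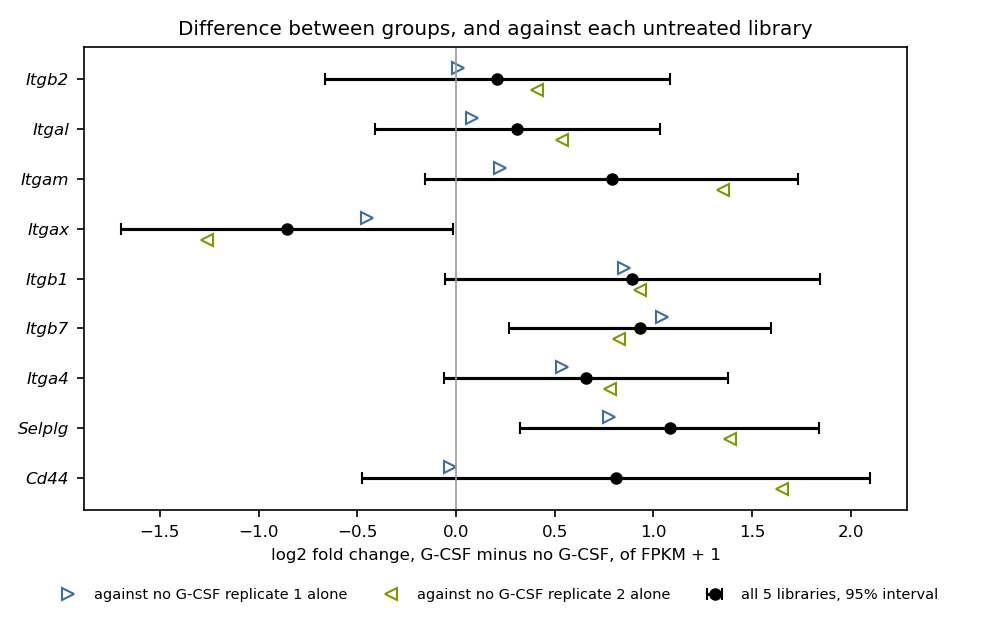
Log2 fold change of FPKM + 1, G-CSF minus no G-CSF, for each member. Filled points with bars give the fit of all 5 libraries with its 95% interval, and open triangles the value against no G-CSF replicate 1 alone or replicate 2 alone. The triangles lie close together for Itgb1, Itgb7 and Itga4 and far apart for Cd44 (-0.03 and 1.65) and Itgam (0.22 and 1.35).

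By mean FPKM the members ranked Itgb2, Cd44, Selplg, Itgb1, Itgal, Itgam, Itgb7, Itga4 and Itgax with G-CSF, and Itgb2, Itgal, Cd44, Itgb1, Selplg, Itgax, Itgam, Itgb7 and Itga4 without. With G-CSF the means of Cd44, Selplg and Itgb1 were 60.3 ± 5.77, 59.7 ± 5.50 and 58.1 ± 19.6 FPKM (SD, n = 3), which lay within each other's spread. The same held for Itga4 and Itgax, at 11.2 ± 2.75 and 10.6 ± 2.20 FPKM (SD, n = 3). Without G-CSF, Itgal and Cd44 at 40.5 ± 9.14 and 39.9 ± 30.4 FPKM (SD, n = 2), and Itgb7 and Itga4 at 7.10 ± 0.864 and 6.62 ± 0.904 FPKM (SD, n = 2), were likewise not separated by their spread. Itgb2 alone was above every other member in every library.

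The profiles of the members over the 5 libraries were compared with those of 3442 protein-coding genes by the root mean square difference of log2(FPKM + 1), each centred on its own mean. Among members, Itgal and Itgb2 were each other's nearest, with a difference of 0.0961, as were Itga4 and Itgb1, with 0.184, and Itgam and Cd44, with 0.19. For Itgax the nearest member was no closer than the median gene (0.678 for each). The genes most like Itgam were Usp8 (0.0265), Prrc2c (0.0327) and Sdcbp (0.036). Those most like Cd44 were Igsf6 (0.0295), Nono (0.0755) and Cap1 (0.0769), and those most like Itgb2 were Gak (0.0142), Ppp4r1 (0.0239) and Rnf4 (0.0249). For Itgb7 they were Gpr146 (0.0971), Sbno2 (0.109) and Relt (0.139), for Selplg they were Bcl2l11 (0.0815), Pnp (0.1004) and Tpd52 (0.101), and for Itgb1 Lhfpl2 (0.0535), Timm23 (0.063) and Rps13 (0.0697). Itgal was most like Slc16a6 (0.036), Zfp217 (0.0428) and Man2b1 (0.0504), and Itga4 most like Apex1 (0.0579), Nucb1 (0.0583) and Ik (0.0646). The genes most like Itgax were Rhob (0.132), Cox20 (0.142) and Vwf (0.173). With 5 libraries these distances describe the libraries only.

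The remaining integrin chains gave a mixed picture, with 0 of 10 tested chains called in either direction by limma. At an unadjusted limma p under 0.05, 2 were higher and 3 lower, against 7.9% and 4.76% of all genes tested. The median log2 fold change was -0.17. Against no G-CSF replicate 1 alone Itgad fell below the filter, and the median of the remaining 9 chains was 0.19. Over the same 9 chains the median was -0.09 against no G-CSF replicate 2 alone, so its sign differed with the untreated library used. Itga5, the alpha chain of the fibronectin receptor and another partner of Itgb1, measured 25.6, 24.8 and 26.1 FPKM in the G-CSF libraries, against 9.83 and 13.5 FPKM in the untreated ones (log2 fold change 1.08 ± 0.25, SE; adjusted p in limma = 0.259). Its treated values were almost equal, and higher than both untreated ones. The collagen-binding chain Itga1 differed by 1.10 ± 0.28 on the log2 scale (SE; adjusted p in limma = 0.279), at levels of at most 2.50 FPKM. The platelet chains went the other way. Itga2b measured 14.2, 13.7 and 13.1 FPKM in the G-CSF libraries, against 33.8 and 75.6 FPKM in the untreated ones, and its partner Itgb3 measured 18.6, 14.6 and 14.2 FPKM in the G-CSF libraries, against 32.7 and 40.7 FPKM in the untreated ones. Their log2 fold changes were -1.82 ± 0.38 and -1.17 ± 0.27 (SE), and neither passed (adjusted p in limma = 0.255 and 0.258). Megakaryocyte and platelet markers, a list of 6 genes that includes Itga2b, summed to 558, 349 and 512 FPKM in the G-CSF libraries, against 280 and 753 FPKM in the untreated ones, so the groups overlapped in that sum, which was mostly Pf4. Gene by gene, 3 of the 5 tested markers of that list, Itga2b and Gp9 among them, were lower without overlap and at an unadjusted limma p under 0.05. Of all genes tested, 11.9% were lower without overlap and 4.76% lower at that p. The part of such cells in the Itga2b and Itgb3 values was not tested. Itgb5, the most abundant chain of this list, overlapped between the groups (log2 fold change -0.22 ± 0.34, SE; adjusted p in limma = 0.794).

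Genes that activate integrins or link them to the cytoskeleton numbered 29 tested of 32, of which 0 were called by limma. At an unadjusted limma p under 0.05, 3 were higher and 1 lower. The shares of all genes tested were 7.9% higher and 4.76% lower, 12.7% in either direction, so these counts do not set the list apart. Their median log2 fold change was 0.42, and 0.09 against no G-CSF replicate 1 alone. Positive values numbered 24 of 29, 20 after median centring and 17 after quantile normalization. Without either scaling, 56.3% of all genes tested had a positive value. Fyb, the adaptor ADAP that couples receptors to integrin activation, measured 50.6, 35.0 and 47.9 FPKM in the G-CSF libraries, against 19.2 and 4.39 FPKM in the untreated ones (log2 fold change 2.11 ± 0.58, SE; adjusted p in limma = 0.298). Fgr, a Src-family kinase that signals downstream of beta-2 integrins in myeloid cells, measured 78.1, 99.0 and 78.4 FPKM in the G-CSF libraries, against 53.8 and 27.3 FPKM in the untreated ones (log2 fold change 1.12 ± 0.38, SE; adjusted p in limma = 0.352). Rasgrp2, the exchange factor that activates Rap1 ahead of integrins, was the lower one, at 4.72, 8.21 and 4.91 FPKM in the G-CSF libraries, against 16.5 and 11.9 FPKM in the untreated ones (log2 fold change -1.15 ± 0.32, SE; adjusted p in limma = 0.301). Flna, the actin crosslinker that binds integrin tails and the most abundant of the list, overlapped between the groups.

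Selectins and the enzymes that build or shed their ligands numbered 17 tested of 19, with 0 called by limma. At an unadjusted limma p under 0.05, 3 were higher and 1 lower, against 7.9% and 4.76% of all genes tested. The median log2 fold change was 0.14, which was -0.03 against no G-CSF replicate 1 alone and -0.007 after quantile normalization. Adam17, the sheddase that removes L-selectin from leukocytes, measured 32.8, 22.1 and 29.2 FPKM in the G-CSF libraries, against 12.5 and 9.23 FPKM in the untreated ones (log2 fold change 1.29 ± 0.29, SE; adjusted p in limma = 0.258). C1galt1, which makes the core on which PSGL-1 glycans are built, measured 9.03, 8.83 and 7.96 FPKM in the G-CSF libraries, against 13.6 and 15.4 FPKM in the untreated ones, while its chaperone C1galt1c1 measured 6.34, 6.46 and 6.64 FPKM in the G-CSF libraries, against 4.75 and 1.19 FPKM in the untreated ones. The enzyme and its chaperone thus differed in opposite directions, with log2 fold changes of -0.69 ± 0.23 and 1.07 ± 0.43 (SE), and neither passed (adjusted p in limma = 0.342 and 0.387). Glg1, known as an E-selectin ligand in the mouse, differed by 0.81 ± 0.30 on the log2 scale (SE; adjusted p in limma = 0.374), and the metalloprotease Adam8, the most abundant of the list, overlapped between the groups.

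Of the counter-receptors and matrix ligands of the members, 10 of 16 were tested, with 0 called by limma and a median log2 fold change of 0.24. At an unadjusted limma p under 0.05, 3 were higher and 0 lower, against 7.9% and 4.76% of all genes tested. Icam1, which encodes the ligand of LFA-1 and Mac-1 and is itself made by activated leukocytes, measured 28.3, 15.8 and 32.7 FPKM in the G-CSF libraries, against 3.95 and 4.04 FPKM in the untreated ones. The untreated libraries were almost equal, so its log2 fold change of 2.35 ± 0.36 (SE; adjusted p in limma = 0.184) was much the same against either of them alone, 2.37 and 2.34. Spp1, encoding osteopontin, a ligand of integrins and CD44, measured 274.8, 107 and 181 FPKM in the G-CSF libraries, against 34.1 and 19.4 FPKM in the untreated ones (log2 fold change 2.71 ± 0.50, SE; adjusted p in limma = 0.212). Fn1, encoding fibronectin, differed by 0.73 ± 0.22 on the log2 scale (SE; adjusted p in limma = 0.324), and Thbs1, encoding thrombospondin-1 and the most abundant of the list, had 1.09 ± 0.49 (SE; adjusted p in limma = 0.423).

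All 9 tested genes of the hyaluronan and CD44 list, of 14, had a positive log2 fold change (7 of 9 against no G-CSF replicate 1 alone), with a median of 0.37, but 0 were called by limma and 2 were higher and 0 lower without adjustment. Across all genes tested 56.3% had a positive value, and 7.9% were higher and 4.76% lower at an unadjusted limma p under 0.05. Moesin (Msn), which ties CD44 and PSGL-1 to actin, measured 127.9, 115 and 113 FPKM in the G-CSF libraries, against 76.3 and 33.7 FPKM in the untreated ones (log2 fold change 1.21 ± 0.42, SE; adjusted p in limma = 0.357). Mmp14, a membrane protease that cleaves CD44, measured 104, 43.3 and 127.6 FPKM in the G-CSF libraries, against 11.3 and 31.6 FPKM in the untreated ones (log2 fold change 2.07 ± 0.63, SE; adjusted p in limma = 0.323). Radixin (Rdx) and Cd74, the invariant chain that uses CD44 as a signalling partner, had log2 fold changes of 0.89 ± 0.41 and 0.92 ± 0.46 (SE; adjusted p in limma = 0.426 and 0.449).

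**Figure D4:**
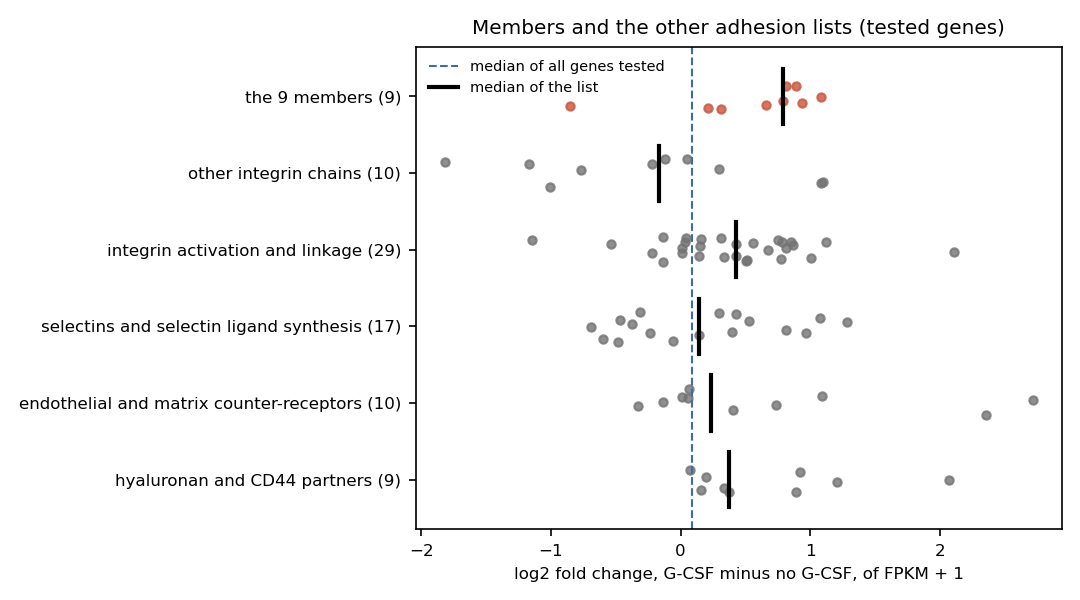
Log2 fold change of FPKM + 1, G-CSF minus no G-CSF, of the 9 members and of the tested genes of 5 other adhesion lists, with 1 point per gene. Black bars mark the median of each list and the dashed line the median of all genes tested, 0.08; none of the points passed the adjusted test.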

How the data were processed

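Gene levels were deposited by the authors as FPKM, 1 column per library. Per the submitters' processing notes the genome was mm10. The aligner, counter, annotation and strandedness are not given in the sources used here, and the protocol attached to the labels describes skin cells. Symbols were matched to GENCODE M21 (GRCm38) for 89.6% of rows. FPKM times exon length gave whole reads, within 0.001 reads in every library, for 94.3% of matched rows. Recovered totals, 2923773 to 6988609 reads, are lower bounds of depth.

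The 16791 genes reaching 1 FPKM in 2 or more libraries were tested as log2(FPKM + 1) with limma 3.58.1 in R 4.3.3 (with trend; a two-sided p, Benjamini-Hochberg adjusted over all genes, below 0.05 was called). The pseudocount of 1 understates fold changes of low genes. Shares were tested by exact permutation over libraries with scipy 1.17.1. No replicate pair agreed within sampling noise (chi-square over degrees of freedom 7.11 to 99.2). The code was checked on simulated data.

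Members and lists were chosen with earlier results of these data known. All 9 members are given. From each list the 4 tested genes with the smallest p and the most abundant gene were named, and for likeness the 3 nearest protein-coding genes with a mean of at least 10 FPKM. Itgb6, Madcam1 and Cd99 of the lists had no row under those symbols. A gene that falls under the rule is not reported here. Alternatives were pseudocounts of 0.1 and 5, no filter and a minimum of 5 FPKM, median centring, quantile normalization, limma without trend or robust, the replicate number as a block, protein-coding genes only, voom on recovered reads scaled by the authors' divisors, and each library left out. Counting Itgam on its unshared exon bases was added after the data were seen.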

Additional observations from a re-analysis of the deposited data

How the results depend on the processing

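The count of members called, 0 in either direction, was the same under every alternative but 1. Without no G-CSF replicate 1, which leaves replicate 2 as the lone control and assumes that it varies as the treated libraries do, 3 were called higher (Cd44, Itgam and Selplg) and 1 lower (Itgax), so the range over single libraries left out was 0 to 3 higher and 0 to 1 lower. In that setting 2834 of all genes were called higher and 1977 lower, while leaving out any other library gave 0 and 0. Over all genes, 1 was called higher and 0 lower; the number higher was 0 with a pseudocount of 5, no filter, median centring, quantile normalization or the replicate block, 2 with a minimum of 5 FPKM or without trend, 3 with a pseudocount of 0.1, 8 with voom (2 lower) and 30 with protein-coding genes only (3 lower). The cause was not tested.

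Of the member log2 fold changes under alternatives, 139 kept direction and call, 4 passed in the setting named above (Cd44 at 1.65, Selplg at 1.39, Itgam at 1.35 and Itgax at -1.26), and 1 reversed, Cd44 at -0.0321 without no G-CSF replicate 2. The smallest adjusted p among members in the other settings lay between 0.195 and 0.985. The replicate numbers are not stated to pair the libraries: deviations correlated at -0.0706 for number 1 and -0.231 for number 2. With them as a block 0 members passed (smallest adjusted p 0.985, 1 residual degree of freedom). With single libraries left out, the share difference between groups ranged from -25.4 to -5.18 percentage points for Itgax, from 3.78 to 17.0 for Itgam, from 1.40 to 8.41 for Itgal and from 4.33 to 9.24 for Itgb1. With Itgam counted on unshared exon bases that of Itgal reversed to -1.84, because the larger Itgam share takes up the difference. Depth limits Itgb7 (74 reads) and Itgam (180 reads) most, both in no G-CSF replicate 2.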
